A study of Mus musculus with 22 samples.

Results

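The 7 genes Wnt3, Eomes, Gsc, Mixl1, Evx1, Mesp1 and Hand1 mark the primitive streak of the mouse gastrula and the mesoderm that leaves it. They were chosen by name, with earlier results of these data known, out of 19938 genes measured on Affymetrix mouse gene arrays. Each was read by 1 probe set. The 22 arrays each held RNA of a different sample of a mouse embryonic germ (EG) or embryonic stem (ES) cell line, both pluripotent cell types kept in culture, and every sample is called a line here. EG lines had been derived from E8.5 embryos. The 4 EG_2i lines were put into 2i at once, the 4 EG_2is lines first spent 48 hours in serum, and the 4 EG_FCS lines stayed in serum. The 5 ES_2i and 5 ES_FCS lines were ES lines in 2i and in serum, and the design text says that established ES cells could be moved from either culture to the other, so 1 line may be present in both groups. Serum culture meant fetal calf serum with leukaemia inhibitory factor (LIF) on feeder cells, which were mouse embryonic fibroblasts. 2i culture meant N2B27 medium with LIF, the MEK inhibitor PD0325901 and the GSK3 inhibitor CHIR99021 on laminin, without feeders. Medium, inhibitors and feeder layer changed together and cannot be told apart. All samples, controls included, carry a strain label of mixed background that crosses 129SvEv with an Oct4-delta-PE-GFP transgenic. All 12 EG lines and 4 of the ES lines are labelled batch 1, and 6 ES lines, 3 in each culture, are labelled batch 2. The EG_2i group held 1 male and 3 female lines, EG_2is 2 and 2, EG_FCS 3 and 1, and both ES groups 3 and 2. The cell type label reads EGCs on all 10 of the 10 ES samples, whose titles and source names say ES, and these were analysed as ES lines.

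At gastrulation WNT and Nodal signals induce the primitive streak in the posterior epiblast, and cells that pass through it become mesoderm and definitive endoderm. Wnt3 encodes a secreted WNT ligand that is needed for the streak to form. Eomes encodes a T-box factor, and Gsc and Mixl1 encode homeodomain factors, of which Gsc is best known in the anterior streak and its organizer. Evx1 encodes a homeodomain factor of the posterior streak, Mesp1 a basic helix-loop-helix factor of the earliest cardiac mesoderm, and Hand1 a basic helix-loop-helix factor of extra-embryonic and lateral mesoderm that trophoblast also uses. The streak forms from the pluripotent epiblast, and these genes are used as markers when pluripotent cells in culture differentiate to mesoderm. CHIR99021 blocks GSK3 and so mimics a WNT signal inside the cell, while PD0325901 blocks the FGF and ERK pathway.

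RefSeq promoters of build GRCm38.p6 were at hand for 5 of the 7 genes, all but Mixl1 and Hand1. The 250 bases before the start of Gsc (chr12:104473237-104473486, minus strand), Wnt3 (chr11:103773925-103774174, plus strand) and Mesp1 (chr7:79793591-79793840, minus strand) are printed 5′ to 3′ on the gene's strand. Gsc is shown as the gene that rose in each comparison of 2i or 2is with FCS, Wnt3 as the ligand that fell in ES lines, and Mesp1 as the promoter with a TCF motif. Capitals mark matches to the motifs searched.
Gsc: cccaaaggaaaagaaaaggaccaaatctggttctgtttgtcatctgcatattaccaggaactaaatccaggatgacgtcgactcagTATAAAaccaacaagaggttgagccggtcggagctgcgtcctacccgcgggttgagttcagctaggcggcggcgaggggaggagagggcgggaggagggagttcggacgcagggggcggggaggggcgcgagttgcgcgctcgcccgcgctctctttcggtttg
Wnt3: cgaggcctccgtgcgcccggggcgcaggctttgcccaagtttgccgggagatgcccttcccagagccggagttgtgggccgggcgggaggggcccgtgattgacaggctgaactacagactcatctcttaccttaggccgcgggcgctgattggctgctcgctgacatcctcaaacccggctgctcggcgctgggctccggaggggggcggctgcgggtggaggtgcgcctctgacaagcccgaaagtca
Mesp1: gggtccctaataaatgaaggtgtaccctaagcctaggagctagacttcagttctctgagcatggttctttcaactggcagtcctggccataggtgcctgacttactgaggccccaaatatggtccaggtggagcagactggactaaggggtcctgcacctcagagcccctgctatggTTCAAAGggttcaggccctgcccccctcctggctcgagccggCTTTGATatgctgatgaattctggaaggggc
The motifs searched on both strands were CTTTGAT and CTTTGAA (TCF factors of the WNT pathway), AATCCAC (FOXH1 of the Nodal pathway), GGTGTGA (T-box), TAATCC (Goosecoid-type homeodomain) and TATAAA. Among 32851 promoters of the same length these were present in 3.21%, 4.46%, 2.1%, 3.33%, 6.25% and 12.4%. The Gsc promoter held TATAAA 164 bases before the start and no other motif. The Mesp1 promoter held CTTTGAT 31 bases before the start and CTTTGAA, on the opposite strand, 73 bases before it. The Wnt3, Eomes and Evx1 promoters held no match, which says only that these letters are not in this window. In base composition the Gsc and Wnt3 promoters each held 22 CpG, against a median of 6 over all promoters, and the Mesp1 promoter held 2. The ratio of observed to expected CpG was 1.06 for Gsc, 0.768 for Wnt3 and 0.105 for Mesp1, with a median of 0.3735 over all promoters.

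The values are log2 RMA expression values, on which a difference of 1 is a doubling. Correlations between arrays within a group were 0.982 to 0.998, array medians lay between 5.54 and 5.619, and no 2 arrays were identical. The 8 pluripotency markers summed to 85.9 to 86.6 in EG_2i, 85.8 to 87.0 in EG_2is and 87.2 to 89.7 in EG_FCS lines, and to 86.4 to 86.9 in ES_2i and 87.4 to 88.9 in ES_FCS lines, so the markers of the labelled cells were present in every line. Eif2s3y, a Y-linked gene that female lines lack, read 8.35 ± 0.36 in the 12 male lines and 4.73 ± 0.08 in the 10 female lines (SD). A reading between 4 and 5 can therefore come from a probe set whose transcript is absent, but probe sets differ in their background, and the arrays do not show for Wnt3, Mesp1, Mixl1 or Evx1 whether any transcript was present. Replicates are separately labelled samples, nothing more is said about separate cultures, and the p-values reflect only how these samples spread, which may be technical. In such bulk RNA, fewer cells with a transcript and less transcript per cell cannot be told apart.

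Gsc was the gene of the 7 that varied most. Its SD over the 22 arrays was 0.615, larger than that of 96.5% of all genes, and differences between the 5 groups held 77.5% of its variance, against a median of 37.5% over all genes. Eomes had an SD of 0.328, but the groups held 18.0% of its variance. Its SD between lines of the same group was larger than that of 94.8% of all genes. Wnt3 and Hand1 varied less in all (0.208 and 0.169), with 65.7% and 52.6% of it between groups. Evx1 was the steadiest, with an SD of 0.105. The plot of every line by gene shows these patterns side by side.

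**Figure D1:**
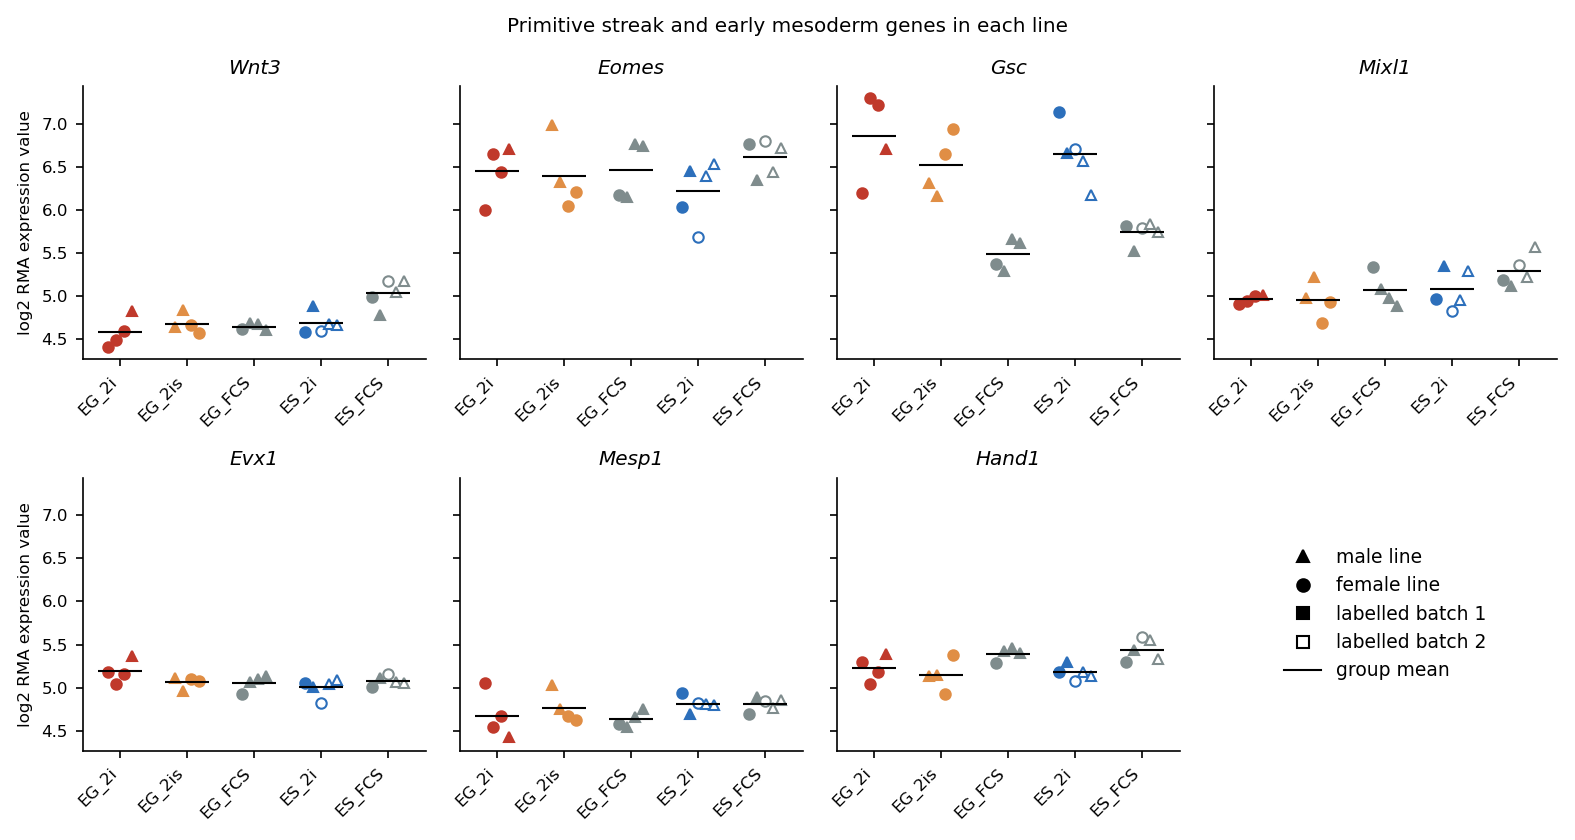
Log2 RMA expression values (vertical axis) of the 7 genes in each of the 22 lines, by group (horizontal axis), with triangles for male and circles for female lines, open symbols for batch 2 and a bar at the group mean. Gsc lies between 6.16 and 7.29 in the lines in 2i or 2is and between 5.29 and 5.84 in the FCS lines. For every other gene the 2i and 2is groups overlap the FCS group, in EG and in ES lines.

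Gsc rose in 2i in both kinds of line. In EG_2i lines it read 6.20, 7.29, 7.22 and 6.71, and in EG_2is lines 6.32, 6.16, 6.65 and 6.94, against 5.37, 5.29, 5.66 and 5.61 in EG_FCS lines. Every EG_2i and EG_2is line was above every EG_FCS line. The difference between EG_2i and EG_FCS lines was 1.24 (SE 0.21, 95% interval 0.80 to 1.68, 2.36-fold), with an adjusted p of 0.000209 (limma, Benjamini-Hochberg over all genes, called under 0.05). Between EG_2is and EG_FCS lines it was 0.97 (SE 0.20, 1.95-fold, limma adjusted p 0.00126). In ES_2i lines Gsc read 7.14, 6.66, 6.71, 6.56 and 6.17, against 5.81, 5.52, 5.79, 5.84 and 5.74 in ES_FCS lines. Again no line of one culture reached into the other, and the difference was 0.91 (SE 0.18, 1.88-fold, limma adjusted p 0.000501). Over all genes, 11.4% (EG_2i), 12.2% (EG_2is) and 11.6% (ES) were likewise higher in 2i without overlap. The EG comparisons share the EG_FCS lines and are not independent of each other.

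The Gsc difference was above 0 in both batches of the ES lines and in both sexes of the EG lines. In ES lines it was 1.23 in batch 1 (2 and 2 lines) and 0.69 in batch 2 (3 and 3 lines). Within the EG lines, which are all of batch 1, EG_2i lines exceeded EG_FCS lines by 1.18 among males (1 and 3 lines) and by 1.53 among females (3 and 1 lines). For EG_2is against EG_FCS lines the values were 0.71 among males (2 and 3 lines) and 1.42 among females (2 and 1 lines). These subsets are small, and the difference between batches was not tested. Over all lines, the culture difference of Gsc in males minus that in females was -0.42 (SE 0.25, limma adjusted p 0.839). The mean level of 20 of the 21 feeder fibroblast markers moved the other way. It was 5.87 in EG_2i and 5.85 in EG_2is lines against 6.73 in EG_FCS lines, and 5.82 in ES_2i against 6.70 in ES_FCS lines. Of these 20 markers 11 (EG_2i), 13 (EG_2is) and 15 (ES_2i) were called lower, and 0, 1 and 2 higher. The markers that rose were Fn1 (0.60 in EG_2is, 0.35 in ES_2i lines) and Timp1 (0.53 in ES_2i lines). The shares of the markers called were 55%, 70% and 85%, beside 23.9%, 25.6% and 31.6% of all genes. Their part in the result was not tested.

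Of the 7 genes, 1 was called between EG_2i and EG_FCS lines (Gsc), where 23.9% of all genes were called. The other 6 had differences whose 95% intervals lay between -0.34 and 0.57. Evx1 came nearest, reading 5.19, 5.04, 5.16 and 5.36 in EG_2i lines against 4.93, 5.06, 5.10 and 5.13 in EG_FCS lines. These groups overlap, and the difference was 0.17 (SE 0.07, limma adjusted p 0.101). Without EG_2i line 2 it was 0.21 with a limma adjusted p of 0.04995. Wnt3 differed by -0.02, Mixl1 by -0.06, Mesp1 by 0.04, Eomes by 0.14 and Hand1 by -0.13.

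Between EG_2is and EG_FCS lines 1 of the 7 was called, again Gsc, where 25.6% of all genes were called. Hand1 read 5.14, 5.15, 4.92 and 5.38 in EG_2is lines against 5.29, 5.42, 5.46 and 5.397 in EG_FCS lines. The difference was -0.23 (SE 0.09, limma adjusted p 0.0821), with EG_2is line 4 inside the range of the EG_FCS lines. Without that line it was -0.31, with a limma adjusted p of 0.0108. The 5 remaining genes differed by -0.09 (Mixl1) to 0.13 (Mesp1).

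The route into 2i made no difference that passed the test. Between EG_2i and EG_2is lines 0 of the 7 genes were called by limma, and 0 had an unadjusted p under 0.05. Over all genes 0% were called, and 2116 genes had an unadjusted p under 0.05. Gsc differed by 0.28 (95% interval -0.15 to 0.70, limma adjusted p 0.665). The smallest limma adjusted p was that of Evx1 (0.475), with a difference of 0.14.

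In ES lines 3 of the 7 genes were called between 2i and FCS, where 31.6% of all genes were called: Gsc rose, and Wnt3 and Hand1 fell. Wnt3 read 4.59, 4.88, 4.60, 4.68 and 4.66 in ES_2i lines against 4.99, 4.78, 5.17, 5.05 and 5.18 in ES_FCS lines. ES_2i line 2 was above ES_FCS line 2, and the other ES_2i lines were below every ES_FCS line. The difference was -0.35 (SE 0.08, 95% interval -0.52 to -0.18, 1.27-fold), with a limma adjusted p of 0.00223. Hand1 read 5.18, 5.30, 5.07, 5.18 and 5.14 in ES_2i lines against 5.30, 5.44, 5.59, 5.55 and 5.33 in ES_FCS lines. The groups met at ES_2i line 2 and ES_FCS line 1, and the difference was -0.27 (SE 0.08, 1.202-fold, limma adjusted p 0.0171). Without ES_FCS line 3 it was -0.20, with a limma adjusted p of 0.0702.

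Both decreases were larger in batch 2, a difference that was not itself tested. For Wnt3 the difference was -0.15 in batch 1 (2 and 2 lines) and -0.49 in batch 2 (3 and 3 lines). For Hand1 it was -0.13 in batch 1 and -0.36 in batch 2. With batch 1 lines only, the limma adjusted p was 0.538 for Wnt3 and 0.627 for Hand1, while Gsc was still called. Of the 20 feeder fibroblast markers, 2 rose and 15 fell in ES_2i against ES_FCS lines. Their summed level was 114.2 to 118.3 in ES_2i lines and 128.5 to 140.9 in ES_FCS lines, with the largest decreases in Thbs1 (-4.28) and Acta2 (-4.05). The 2 that rose were Timp1 (0.53) and Fn1 (0.35), and Pdgfrb (0.12), Lum (0.01) and Vim (-0.13) were not called. Of the 10 measured trophoblast markers 2 fell in ES_2i lines, the keratins Krt18 (-2.16) and Krt8 (-1.27), and the list's summed level was 54.2 to 61.7 in ES_2i and 60.5 to 64.8 in ES_FCS lines. The part of either cell type in the 2 decreases was not tested. The other 8 trophoblast markers differed by -0.42 (Tfap2c) to 0.40 (Cdx2) and were not called. The share called was 20% of the trophoblast and 85% of the feeder markers, beside 31.6% of all genes.

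**Figure D2:**
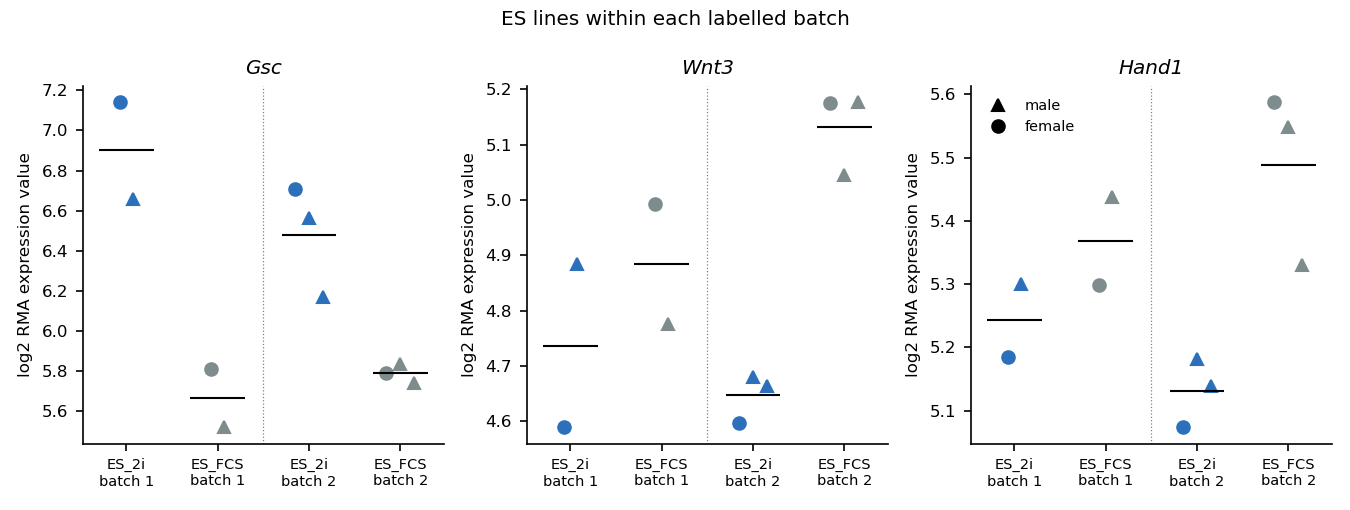
Log2 RMA expression values (vertical axis) of Gsc, Wnt3 and Hand1 in ES_2i and ES_FCS lines within labelled batch 1 and batch 2 (horizontal axis), with triangles for male and circles for female lines and a bar at each mean. Gsc is separate in both batches, whereas Wnt3 and Hand1 overlap in batch 1 and are separate in batch 2.

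The 4 genes that were not called in ES lines differed among themselves. Eomes read 6.03, 6.45, 5.68, 6.39 and 6.53 in ES_2i lines against 6.77, 6.34, 6.80, 6.44 and 6.72 in ES_FCS lines. The difference was -0.40 (SE 0.18, limma adjusted p 0.0988), and without ES_FCS line 2 it was -0.53 with a limma adjusted p of 0.0298. It was -0.31 in batch 1 and -0.45 in batch 2. Among males it was 0.11 in batch 1 (1 and 1 lines) and -0.12 in batch 2 (2 and 2 lines), and among females -0.74 and -1.12 (1 and 1 lines each). Eomes was thus lower in the ES_2i female than in the ES_FCS female of each batch, with too few lines for a test among females. Mixl1 lay between 4.83 and 5.35 in ES_2i lines and between 5.12 and 5.57 in ES_FCS lines, a difference of -0.21 (limma adjusted p 0.179). Evx1 differed by -0.08 and Mesp1 by 0.00, and for these 2 the 95% intervals lay between -0.21 and 0.21.

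**Figure D3:**
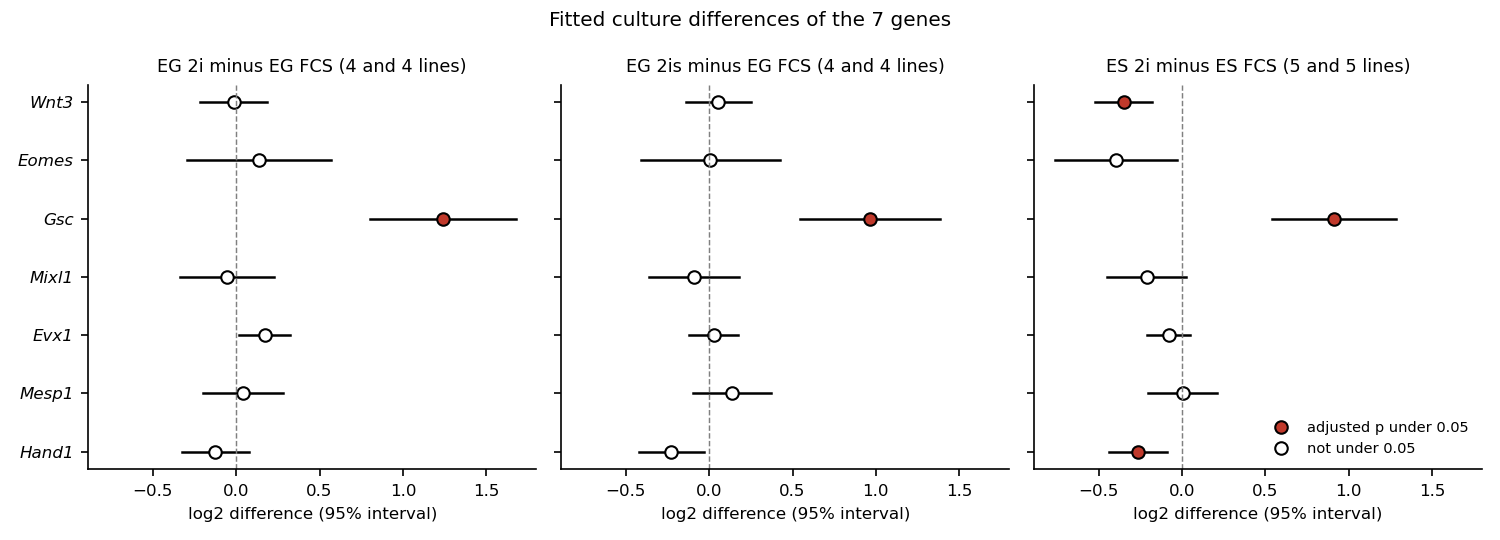
Fitted log2 differences (horizontal axis, points) with 95% intervals (lines) of the 7 genes (vertical axis) for EG 2i minus EG FCS, EG 2is minus EG FCS and ES 2i minus ES FCS, filled where the adjusted p was under 0.05. Gsc is at 1.24, 0.97 and 0.91, and the 2 filled points below 0 are Wnt3 (-0.35) and Hand1 (-0.27) in ES lines.

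Whether EG and ES lines responded differently was tested as a difference of the culture differences. For 2i, 0 of the 7 genes were called by limma, where 1.44% of all genes were called. Of all genes 3149, and of the 7 genes 2, had an unadjusted p under 0.05. These were Wnt3, with a difference of 0.33 (SE 0.13, adjusted p 0.187), and Evx1, with 0.25 (SE 0.10, limma adjusted p 0.194). For 2is, 0 of the 7 were called by limma, where 0.0301% of all genes were called. An unadjusted p under 0.05 was reached by 1799 of all genes and by 1 of the 7. This was Wnt3 at 0.41 (SE 0.12, limma adjusted p 0.285). Wnt3 and Hand1 are thus not shown to respond differently in EG and ES lines.

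Set directly against each other in the same culture, EG and ES lines gave no called gene among the 7. Between EG_FCS and ES_FCS lines 0 of the 7 were called by limma, where 0.01% of all genes were called. Of all genes 979, and of the 7 genes 1, had an unadjusted p under 0.05. That gene was Wnt3, at 4.61, 4.69, 4.68 and 4.60 in EG_FCS lines against 4.99, 4.78, 5.17, 5.05 and 5.18 in ES_FCS lines. Every EG_FCS line was below every ES_FCS line, as held for 1.27% of all genes. The difference was -0.36 (SE 0.10), with a limma adjusted p of 0.771, and it was -0.24 within batch 1 (4 and 2 lines). Between EG_2i and ES_2i lines 0 of the 7 were called by limma, where 3.72% of all genes were called. An unadjusted p under 0.05 was reached by 3742 of all genes and by 1 of the 7, Evx1. Evx1 differed by 0.20 (SE 0.08, limma adjusted p 0.152), and with no batch term by 0.21 with a limma adjusted p of 0.0479. Between EG_2is and ES_2i lines 0 of the 7 were called by limma, where 0.0451% of all genes were called. An unadjusted p under 0.05 was reached by 1872 of all genes and by 0 of the 7. The 95% intervals of the 7 genes between EG_2i and ES_2i lines reached from -0.41 to 0.78.

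The 7 genes were also compared by sex, and with 1 sex term over all lines none of them was called. Males minus females differed by 0.30 for Eomes (limma adjusted p 0.184) and by -0.25 for Gsc (limma adjusted p 0.275), where 3.62% of all genes were called. Among the lines in 2i or 2is, Eomes averaged 6.56 in the 6 males and 6.15 in the 7 females. With separate sex terms for the cultures, which were chosen after the values of Eomes had been seen, that difference was 0.51 (SE 0.15, limma adjusted p 0.0492), where 5.17% of all genes were called. It was called in 8 of the 22 fits that left out 1 line, with adjusted p from 0.0330 to 0.135. For Gsc the same term was -0.42 (limma adjusted p 0.126), with means of 6.43 in males and 6.88 in females. It was called in 1 of the 22 fits, the one without EG_2i line 1 (-0.51, adjusted p 0.00384). Wnt3 (0.18, limma adjusted p 0.1295) and Mixl1 (0.23, limma adjusted p 0.158) had adjusted p close to that of Gsc and were not called. In FCS lines the term was -0.02 for Eomes and 0.01 for Gsc, over 6 males and 3 females. The difference between the sex terms was 0.54 for Eomes, with a limma adjusted p of 0.768. For Mixl1, with the smallest adjusted p of the 7, it was 0.36 (limma adjusted p 0.7645). Sex is thus not shown to act differently in the 2 cultures.

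**Figure D4:**
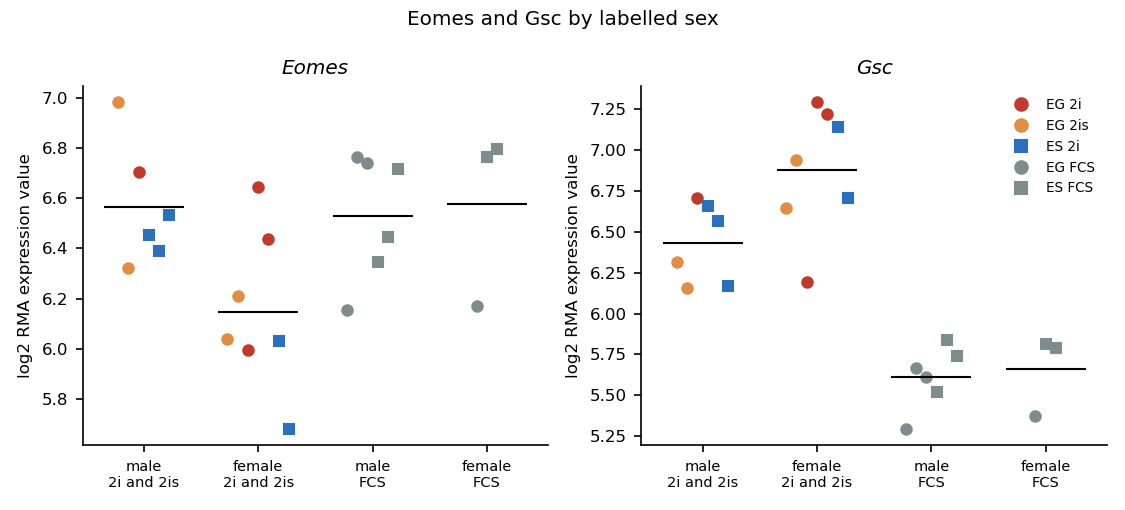
Log2 RMA expression values (vertical axis) of Eomes and Gsc by labelled sex and culture (horizontal axis), with circles for EG and squares for ES lines and a bar at each mean. In the lines in 2i or 2is, Eomes averages 6.56 in males and 6.15 in females, and Gsc 6.43 in males and 6.88 in females.

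The 7 genes did not move as a block. Over the 21 pairs, Pearson correlations across the 22 arrays ran from -0.587 (Gsc and Hand1) to 0.723 (Mixl1 and Wnt3), and 11 were positive. After removal of the group means they ran from -0.443 (Wnt3 and Mesp1) to 0.581 (Mixl1 and Wnt3), again with 11 positive. Arrays of a group share culture, and these values are a description. The genes whose pattern over the 22 arrays was most like that of Gsc were Gna13 (r = 0.944), Ank (0.940) and S100a13 (0.936). Gna13 averaged 10.4 in EG_2i, 10.4 in EG_2is and 9.40 in EG_FCS lines, and 10.2 in ES_2i and 9.41 in ES_FCS lines. For Wnt3 the nearest were Dclk1 (0.848), Mdfi (0.837) and Dsc2 (0.823). For Hand1 they were Twist2 (0.810), Rspo1 (0.807) and Slc17a7 (0.806). For Eomes the nearest was Lgals1, with an r of 0.718, for Mixl1 Pik3cd (0.802), for Evx1 Olfr132 (0.740) and for Mesp1 Kcnn1 (0.776).

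Other streak and mesoderm genes were called in 2i or 2is about as often as all genes. The share of the list called was 24.6% (EG_2i), 22.8% (EG_2is) and 36.8% (ES), close to the 23.9%, 25.6% and 31.6% of all genes. Of all genes called, 47.7%, 49.8% and 52.7% were higher. The list of 57 measured genes held ligands, receptors, antagonists and factors of the streak and of early mesoderm, and it was chosen with earlier results of these data known. Between EG_2i and EG_FCS lines 3 rose and 11 fell, with a median of -0.04 against 0.01 over all genes. Cdx1, a homeodomain factor downstream of WNT, rose by 1.13 (SE 0.21, limma adjusted p 0.000463), the LIM-homeodomain factor Isl1 by 0.58 and Smad4, the SMAD shared by Nodal and BMP signals, by 0.37. The Nodal antagonist Lefty1 fell by 4.06 (SE 0.74, limma adjusted p 0.000442). The ligand Bmp4 (-1.97), the Notch ligand Dll1 (-1.84) and the Nodal co-receptor Tdgf1 (-0.63) fell as well. Lefty1 averaged 5.81 ± 1.09 in EG_2i lines and 9.76 ± 0.76 in EG_FCS lines (SD, n = 4 each). Between EG_2is and EG_FCS lines 3 rose and 10 fell, with a median of -0.07 against -0.01 over all genes. Cdx1 rose by 0.90, Isl1 by 0.39 and Smad4 by 0.29, while Dll1 (-1.92), Bmp4 (-1.86), the ligand Wnt8a (-0.72) and Tdgf1 (-0.53) fell. The call of Isl1 was lost in 19 of 34 alternatives, with limma adjusted p up to 0.134 when 1 line was left out.

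In ES lines 4 of the 57 rose and 17 fell in 2i, with a median of -0.09 against 0.00 over all genes. Bmp4 fell by 2.41 (SE 0.27, limma adjusted p 1.54e-06), with means of 6.28 ± 0.32 in ES_2i and 8.68 ± 0.49 in ES_FCS lines (SD, n = 5 each). Dll1 (-1.82), Wnt8a (-0.95) and the ligand Fgf8 (-0.65) fell as well. The ligand Fgf4 rose by 0.59, the activin antagonist Fst by 0.70, the WNT target Sp5 by 0.63 and Isl1 by 0.39. Fst lost its call in 10, Sp5 in 13 and Isl1 in 5 of 34 alternatives, and Fgf4 and Fgf8 in 1 each, the fit to batch 1 lines alone. With batch 1 lines only, 1 of the 57 was called higher and 8 lower, and with array weights 10 were called higher and 20 lower. Over all 19938 genes the number called moved as well, from 6298 in the main fit to 2460 with batch 1 lines only. Across the alternatives other than leaving out 1 line it ran from 2460 to 8090. Of 20 feeder fibroblast markers 11 fell beside these genes in EG_2i, 13 in EG_2is and 15 in ES lines, while 0, 1 and 2 rose. Their part was not tested. Of 13 primitive endoderm markers 4, 6 and 2 fell in these 3 comparisons and 0, 0 and 1 rose. Of 9 neural markers 2, 4 and 3 fell and 0 rose. The shares called were 55%, 70% and 85% (feeder), 30.8%, 46.2% and 23.1% (primitive endoderm) and 22.2%, 44.4% and 33.3% (neural). Of all genes 23.9%, 25.6% and 31.6% were called.

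**Figure D5:**
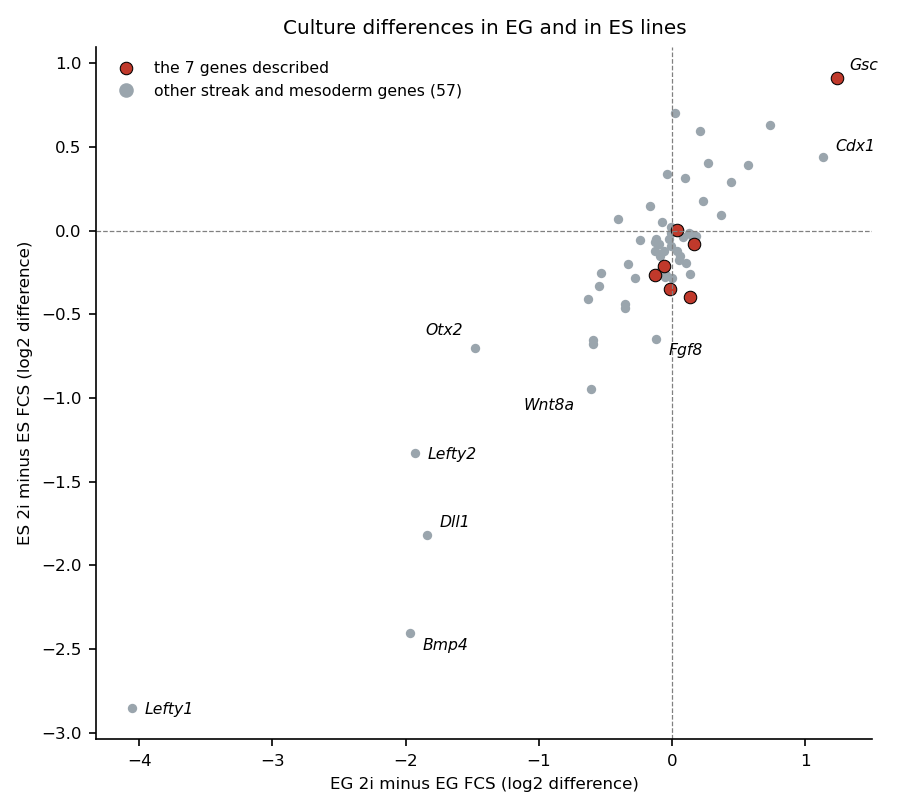
Log2 difference in EG lines (2i minus FCS, horizontal axis) and in ES lines (2i minus FCS, vertical axis) for the 7 genes (red) and 57 other streak and mesoderm genes (grey), 1 point per gene. Gsc lies at 1.24 and 0.91 in the upper right, with Cdx1 (1.13 and 0.44) near it, while Lefty1, Bmp4 and Dll1 lie in the lower left.

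Known target genes of the WNT and Nodal pathways, which induce the streak, were counted in the same way. Both lists share genes with the streak and mesoderm list above, among them Cdx1, Sp5, Lefty1, Lefty2, Tdgf1 and Cer1, which are counted again here. Of 12 measured WNT targets, 3 rose and 1 fell in EG_2i, 3 rose and 1 fell in EG_2is, and 4 rose and 2 fell in ES_2i lines, each against FCS. That is 33.3%, 33.3% and 50% of the list, beside 23.9%, 25.6% and 31.6% of all genes. In EG_2i lines these were Notum (1.59), Cdx1 (1.13) and Axin2 (1.05) upwards and Lef1 (-1.45) downwards, named after their values had been seen. Of 7 measured Nodal targets, Gsc among them, 1 rose and 3 fell in EG_2i, 1 rose and 2 fell in EG_2is, and 1 rose and 4 fell in ES_2i lines, which is 57.1%, 42.9% and 71.4% of a short list. The 1 that rose was Gsc each time.

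Between EG_2i and EG_2is lines, 0 of the 57 streak and mesoderm genes were called by limma. Of all genes 2116, and of the 57 genes 2, had an unadjusted p under 0.05. The 2 were Lefty2 (-1.79, limma adjusted p 0.207) and Sox17 (0.20, limma adjusted p 0.355). Between EG_FCS and ES_FCS lines 979 of all genes had an unadjusted p under 0.05. Of the 57, 0 were called by limma and 4 had an unadjusted p under 0.05. Their smallest adjusted p belonged to Gata6 (0.60, limma adjusted p 0.955) and Gdf3 (0.31, limma adjusted p 0.972). Between EG_2i and ES_2i lines 1.75% of the 57 were called, beside 3.72% of all genes. An unadjusted p under 0.05 was reached by 3742 of all genes and by 8 of the 57. Smad4 was the 1 of 57 called, higher by 0.24 (SE 0.06, limma adjusted p 0.0418), and Cer1 followed at 0.33 (limma adjusted p 0.111). The call of Smad4 was lost in 18 of 33 alternatives, and without ES_2i line 2 the difference was 0.20 with a limma adjusted p of 0.152. Between EG_2is and ES_2i lines 1872 of all genes had an unadjusted p under 0.05. Of the 57, 0 were called by limma and 2 had an unadjusted p under 0.05. The 2 were Lefty2 (1.45, limma adjusted p 0.377) and Smad4 (0.17, limma adjusted p 0.398). For the EG response to 2i minus that of ES lines, 3149 of all genes had an unadjusted p under 0.05. Of the 57, 0 were called by limma and 10 had an unadjusted p under 0.05. The smallest adjusted p belonged to Smad4 (0.28, limma adjusted p 0.0877) and Fgf8 (0.53, limma adjusted p 0.0960). For 2is, 1799 of all genes had an unadjusted p under 0.05. Of the 57, 0 were called by limma and 6 had an unadjusted p under 0.05. These 6 were led by Fgf8 (0.54, limma adjusted p 0.256) and Aplnr (0.27, limma adjusted p 0.366).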

How the data were processed

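RNA of 22 mouse cell line samples was measured on 1 Affymetrix array each. The values the authors deposited are log2 expression values, 1 per probe set. Expression Console (Affymetrix), RMA and limma are the tools in the submitters' processing notes, and no version is stated there. The RMA method corrects background, normalizes by quantiles and summarizes probes. Whether the authors adjusted for batch is not given in the sources used here.

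Of 28853 probe sets, 21789 were listed with 1 gene symbol, 1621 with several and 5443 with none. The first were used, matched by Entrez ID to RefSeq (21698 matched, 0 symbols updated). The probe set with the highest mean stood for its gene, which left out 1851 second probe sets. No filter on dim probe sets was set. All arrays were fitted together with lmFit and eBayes (limma 3.58.1, R 4.3.3) with terms for group, batch and sex, and p-values were adjusted over 19938 genes. The batch term rests on ES lines alone. Streak and mesoderm genes named beside the 7 were the 4 called genes with the smallest adjusted p in each direction (2i or 2is against FCS) or the 2 with the smallest adjusted p (other comparisons), and for likeness the most correlated genes. In the lists, 7 members were not analysed here. The 7 genes and all lists were chosen with earlier results of these data known. The fit was tested on simulated data. Alternatives tried were other scalings, probe set choices, batch and sex terms, priors, array weights, subsets, replicate blocks and leaving out each line. The number of arrays limits the precision. Figures were drawn with matplotlib 3.10.9.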

Additional observations from a re-analysis of the deposited data

How the results depend on the processing

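Over all alternatives and comparisons, 2100 of 2107 values of the 7 genes kept their side of the threshold, 3 lost a call and 4 gained one. Those 7 are the values of Wnt3, Hand1, Eomes and Evx1 given beside each result. The sign turned in 63 of the 2100, of which 0 were called in either fit (lowest limma adjusted p 0.603). Gsc was called under every alternative for EG_2i and EG_2is against EG_FCS and for ES_2i against ES_FCS lines. Its differences were 1.09 to 1.46, 0.83 to 1.06 and 0.74 to 1.23. 

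Leaving out 1 line at a time gave 1 to 2 of the 7 genes called for EG_2i against EG_FCS, 1 to 2 for EG_2is against EG_FCS and 2 to 4 for ES_2i against ES_FCS lines. In the same fits 3441 to 4913, 3973 to 5348 and 5546 to 6439 of all 19938 genes were called. Leaving out 1 line also gave, over all genes, 2 to 4 called for EG_FCS against ES_FCS, 301 to 872 for EG_2i against ES_2i, and 1 to 43 for EG_2is against ES_2i lines. For the difference between EG and ES responses it gave 110 to 390 (2i) and 4 to 25 (2is). With batch 1 arrays only, ES_2i against ES_FCS lines gave 2460 genes and 1 of the 7, EG_FCS against ES_FCS 1, EG_2i against ES_2i 201, and both response differences 0. With no batch term EG_FCS against ES_FCS lines gave 6 genes, EG_2i against ES_2i 1758 and 1 of the 7, and EG_2is against ES_2i 33. With no sex term EG_2is against ES_2i lines gave 4. With only the groups compared in the fit, EG_2i against EG_2is lines gave 1, EG_FCS against ES_FCS 1, EG_2i against ES_2i 15 and EG_2is against ES_2i 0. Array weights gave 27 for EG_2is against ES_2i lines and 876 and 112 for the response differences. The series of sample numbers in place of batch gave 179, and centring arrays on their medians 469, for the 2i response difference. The cause of these changes was not tested, and the subsets also held fewer arrays.

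The values with a turned sign were as follows. After quantile normalization Eomes was at -0.058 for EG_2is against EG_FCS. After centring, Mesp1 was at -0.018 for the 2i response difference and Serpina3n at -0.00097 for EG_2i against EG_FCS. With no sex term Eomes was at -0.012 and Serpina3n at -0.034 for EG_2i, and Eomes at -0.070 for EG_2is, against EG_FCS. With batch 1 arrays only, Wnt3 was at 0.00094 for EG_2i against EG_FCS, Mixl1 at 0.0048 for ES_2i against ES_FCS, Gsc at -0.12 for EG_2i and Wnt3 at -0.059 for EG_2is against ES_2i. There the 2i response differences were -0.0083 (Gsc) and -0.073 (Mixl1), and the 2is ones -0.28 (Gsc), -0.10 (Mixl1) and -0.091 (Hand1). With only the groups compared, Wnt3 was at 0.031, Mesp1 at -0.024 and Serpina3n at -0.048 for EG_2i against EG_FCS, Hand1 at 0.014 for EG_FCS against ES_FCS, Gsc at -0.13 for EG_2i and Wnt3 at -0.059 for EG_2is against ES_2i. With array weights Eomes was at -0.049 for EG_2is against EG_FCS, Mesp1 at -0.0012 for ES_2i against ES_FCS, and Wnt3 at 0.0065 for EG_2i and Hand1 at 0.016 for EG_2is against ES_2i. With the replicate block Wnt3 was at 0.015 for EG_2i against EG_FCS. The sex term of FCS lines alone was 0.0060 (Gsc), -0.023 (Eomes), -0.12 (Mixl1), -0.043 (Wnt3) and 0.068 (Mesp1).

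Leaving out 1 line turned the sign within these ranges. For EG_2i against EG_FCS they were -0.12 to 0.12 (Mixl1), -0.11 to 0.029 (Wnt3), -0.075 to 0.17 (Mesp1) and -0.015 to 0.17 (Serpina3n). For EG_2is against EG_FCS they were -0.17 to 0.091 (Eomes), -0.18 to 0.065 (Mixl1), -0.0054 to 0.083 (Evx1) and -0.14 to 0.036 (Serpina3n). For EG_2i against EG_2is they were -0.050 to 0.11 (Mixl1) and -0.22 to 0.016 (Mesp1), and for ES_2i against ES_FCS -0.041 to 0.042 (Mesp1) and -0.0027 to 0.054 (Wnt9b). For EG_2i against ES_2i they were -0.068 to 0.29 (Gsc), -0.11 to 0.080 (Wnt3) and -0.10 to 0.083 (Mixl1). For EG_2is against ES_2i they were -0.12 to 0.043 (Hand1), -0.13 to 0.041 (Mesp1), -0.022 to 0.16 (Wnt3) and -0.17 to 0.058 (Mixl1). For the response differences they were -0.079 to 0.16 (Mesp1, 2i), -0.080 to 0.16 (Gsc, 2is) and -0.047 to 0.099 (Hand1, 2is).

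Scaling moved the share of higher calls for the 2i response difference, 39.4% as reported, to 50.5% after quantile normalization and 20.9% after centring. For EG_2i against ES_2i lines, with 32.4% as reported, it was 46.5% and 16.4%. Same-numbered ES lines carry the same sex and batch labels in both cultures. Their deviations from the group means correlated at -0.013 to 0.241 over all genes. These values cannot tell whether same-numbered samples are 1 line, and the main fit used no pairs. With the replicate number as a block, ES_2i against ES_FCS lines gave 5900 genes and 3 of the 7, EG_2i against EG_FCS 4128 and 1, and EG_2is against EG_FCS 4753 and 1. The block gave 1 gene for EG_2i against EG_2is lines. Dixon's outlier test found 0 single lines standing apart in 35 sets of values. The number of arrays and the unknown background of each probe set limit what can be said of the dimmer genes.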

Other observations

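Some of the genes next to the 7 on their chromosomes gave the following values in 2i or 2is against FCS lines. Beside Gsc on chromosome 12, Dicer1, which encodes the ribonuclease that makes microRNAs, fell by 0.52 in EG_2i lines (limma adjusted p 0.000158), by 0.38 in EG_2is lines (0.00165) and by 0.52 in ES_2i lines (limma adjusted p 1.70e-05), while Gsc rose. The gene on the other side, Serpina3n, differed by 0.04, -0.08 and -0.09 and was not called. Beside Mixl1 on chromosome 1, Acbd3 rose by 0.36 in EG_2i, 0.27 in EG_2is and 0.42 in ES_2i lines. Beside Wnt3 on chromosome 11, the ligand gene Wnt9b differed by -0.08, -0.09 and 0.02 and was not called. On the other side Nsf rose by 0.78 in ES_2i lines (limma adjusted p 0.000134) and by 0.46 in EG_2i lines (limma adjusted p 0.0358). The EG_2i call was lost in 9 of 34 alternatives. In EG_2is lines Nsf differed by 0.36 (limma adjusted p 0.0833). Beside Mesp1 on chromosome 7, its paralog Mesp2 differed by 0.06, -0.08 and -0.15 and was not called, with a limma adjusted p of 0.0846 in ES lines. The neighbours were taken by position, from the gene order of GRCm38.p6, and those named here were picked after their values had been seen.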
